A study of Mus musculus with 12 samples.

Results

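The transcripts of 10 genes of the naive pluripotency network were followed in mouse embryonic stem (ES) cells that lack DHX36, FANCJ or both. The genes were chosen by name from a list of the network, as the rows of the gene count table with the symbols Nanog, Klf2, Klf4, Klf5, Esrrb, Tbx3, Tfcp2l1, Zfp42, Fbxo15 and Nr0b1. These genes were chosen with earlier results of these data known. They are 10 of the 32285 genes in the table, and all 10 were among the 12765 genes that passed the filter on low counts. Fbxo15 encodes an F-box protein and is not a transcription factor; it stands with the others as an ES cell marker gene.

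The study measured polyadenylated transcripts by bulk RNA sequencing with a protocol like CEL-Seq2, which reads the 3′ ends of transcripts, in 4 genotypes with 3 libraries each. The genotypes were a double knockout of DHX36 and FANCJ, a knockout of DHX36 alone, a knockout of FANCJ alone, whose mouse gene is Brip1, and wild type. All 12 libraries came from the IB10 line, which derives from 129/Ola mice, kept on gelatin without treatment in medium conditioned by Buffalo rat liver cells, with fetal calf serum and leukemia inhibitory factor (LIF). Neither the clone number of each knockout nor the source culture of each library is given in the sources used here. The p-values therefore reflect spread among libraries that may differ only technically.

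As background, the naive state is that of the inner cells of the early embryo before implantation, and ES cells hold it in culture while LIF, acting through its receptor and STAT3, and Wnt signalling keep a mutually supporting set of transcription factors active. Klf4, Tbx3 and Tfcp2l1 are known to respond to LIF, and Esrrb is a known target of Wnt signalling by way of its repressor Tcf7l1. In medium with serum and LIF these factors vary from cell to cell, and cells that leave the naive state lose them and turn on formative genes such as Otx2. DHX36 is a DEAH-box helicase that unwinds G-quadruplexes, structures of stacked guanines, in RNA and DNA, and FANCJ is a DNA helicase of the Fanconi anaemia pathway that unwinds them in DNA.

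Because both helicases act on G-quadruplexes, the members' promoters were searched for the simplest motif of such a structure, 4 runs of at least 3 G (GGG) separated by 1 to 7 bases of any kind. Promoters were taken from RefSeq (build GRCm38.p6) as the 250 bases before and 50 after a transcription start, and 7 of the 10 members were matched in that table; where a gene had several starts, the first is shown. Klf5, Tbx3 and Fbxo15 were not matched. Nanog, Klf4 and Zfp42 held the motif, Nanog on the sense strand and Klf4 and Zfp42 on the antisense strand, where it reads as runs of C. Of 32851 mouse promoters in the table, 18.6% held it on either strand. The 3 promoters with the motif are shown, since the genes behind them differed in how they moved, beside that of Tfcp2l1, which held none and had the largest interaction described further on. Each is written 5′ to 3′ on the gene's own strand, with the motif in capitals. The Nanog promoter lies at chr6:122707239-122707538 (plus strand), Klf4 at chr4:55532426-55532725 (minus strand), Zfp42 at chr8:43306960-43307259 (minus strand) and Tfcp2l1 at chr1:118627695-118627994 (plus strand).
Nanog promoter: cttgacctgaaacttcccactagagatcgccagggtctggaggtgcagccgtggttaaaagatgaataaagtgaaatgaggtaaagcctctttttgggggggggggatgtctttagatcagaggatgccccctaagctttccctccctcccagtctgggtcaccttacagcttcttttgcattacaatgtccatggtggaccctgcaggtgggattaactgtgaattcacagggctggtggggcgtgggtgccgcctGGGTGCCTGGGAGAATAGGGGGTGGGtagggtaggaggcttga
Klf4 promoter: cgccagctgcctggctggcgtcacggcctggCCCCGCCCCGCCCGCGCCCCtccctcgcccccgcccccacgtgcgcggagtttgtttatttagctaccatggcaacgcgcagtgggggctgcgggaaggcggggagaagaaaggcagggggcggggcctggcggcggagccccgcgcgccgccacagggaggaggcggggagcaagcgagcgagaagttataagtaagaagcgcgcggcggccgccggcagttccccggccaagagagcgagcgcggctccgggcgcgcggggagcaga
Zfp42 promoter: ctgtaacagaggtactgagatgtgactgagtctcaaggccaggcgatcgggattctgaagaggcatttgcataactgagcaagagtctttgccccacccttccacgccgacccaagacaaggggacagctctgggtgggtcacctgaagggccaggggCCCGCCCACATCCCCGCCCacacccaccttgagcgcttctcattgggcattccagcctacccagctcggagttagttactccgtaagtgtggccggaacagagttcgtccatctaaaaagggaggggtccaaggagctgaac
Tfcp2l1 promoter: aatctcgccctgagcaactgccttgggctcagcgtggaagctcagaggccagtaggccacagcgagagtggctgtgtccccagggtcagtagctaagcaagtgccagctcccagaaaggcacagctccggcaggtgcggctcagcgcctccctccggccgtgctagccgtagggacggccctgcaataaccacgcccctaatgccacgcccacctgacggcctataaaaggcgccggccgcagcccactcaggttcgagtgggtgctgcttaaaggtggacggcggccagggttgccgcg
With loops of up to 12 bases, 5 of the 7 members held a match, and 28.7% of all promoters did. A member was counted if any of its starts matched, while the share is per promoter. In the members' coding transcripts, read on the RNA strand, loops of up to 7 bases gave a match in 1 of 10, the 3′ untranslated region of Esrrb. Of all genes searched, 6.16% held one in the 5′ untranslated region, 3.63% in the coding sequence and 9.61% in the 3′ untranslated region. With loops of up to 12 bases 5 of the 10 transcripts matched in some region. Klf5 and Tbx3 matched in the 5′ untranslated region, Fbxo15 in the coding sequence and Klf2 and Esrrb in the 3′ untranslated region. Of all genes searched, 11.2%, 9.28% and 15.1% matched in these regions, in that order. The shares are per region. No share of whole transcripts was computed, so the counts out of 10 have no like share beside them. A match describes the letters and not a structure, and no RNA or DNA structure was measured. The gene positions given further on are from GENCODE M21 (GRCm38).

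Total counts ranged between 4284785 and 14721931 per library, and the shallowest double knockout library (10915924 counts) exceeded the deepest wild-type one (5792862 counts). Levels are given as CPM, the counts scaled to a common library size. They were computed from the deposited counts with library totals normalised by trimmed means. Their precision is limited by 3 libraries per genotype and by counting error. Dhx36 fell to 12.2, 15.1 and 14.5 CPM in the double knockout and 10.9, 8.84 and 11.6 CPM in the DHX36 knockout, against 54.7, 57.6 and 50.1 CPM in wild type. Brip1 was at 0.744, 0.319 and 0.178 CPM in the double knockout and 0.129, 0.266 and 0.619 CPM in the FANCJ knockout, against 6.86, 6.72 and 7.03 CPM in wild type. Libraries of each knockout thus held less of the targeted transcript than every wild-type library. The ES cell factor genes Pou5f1 (77.3 to 123 CPM) and Sox2 (1271 to 2052 CPM) were present in every library. All 10 members were present in every library too, so the ES cell label was met by its markers.

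All members but Nr0b1 had their highest mean level in cells that lacked both helicases. In the double knockout 6 of the 10 members rose against wild type and 0 fell (edgeR quasi-likelihood test, Benjamini-Hochberg adjusted p under 0.05). Of all tested genes 33.9% changed there, 16.6% upward and 17.3% downward. At an unadjusted p under 0.05 there were 7 higher and 0 lower, and DESeq2 called 6 higher and 0 lower. The DHX36 knockout was mixed, with 4 members higher and 2 lower, where 24.4% of all genes changed, 12.8% upward and 11.6% downward. In the FANCJ knockout 0 of 10 passed by edgeR and 0 by DESeq2, where 2.07% of all genes changed. At an unadjusted p under 0.05, Fbxo15 was higher and Nr0b1 lower there. Libraries did not overlap with wild type for 6 members in the double knockout (45.2% of all genes), 6 in the DHX36 (37.6%) and 3 in the FANCJ knockout (18.7%). The median log2 fold change of the members was 0.37 in the double knockout, -0.02 with DHX36 lost alone and -0.09 with FANCJ lost alone. The medians over all tested genes were 0.01, 0 and 0 in the same order. These 3 comparisons share the wild-type libraries and are not independent of each other. In bulk RNA, a higher share of cells in which a factor is on and more transcript per cell cannot be told apart.

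**Figure D1:**
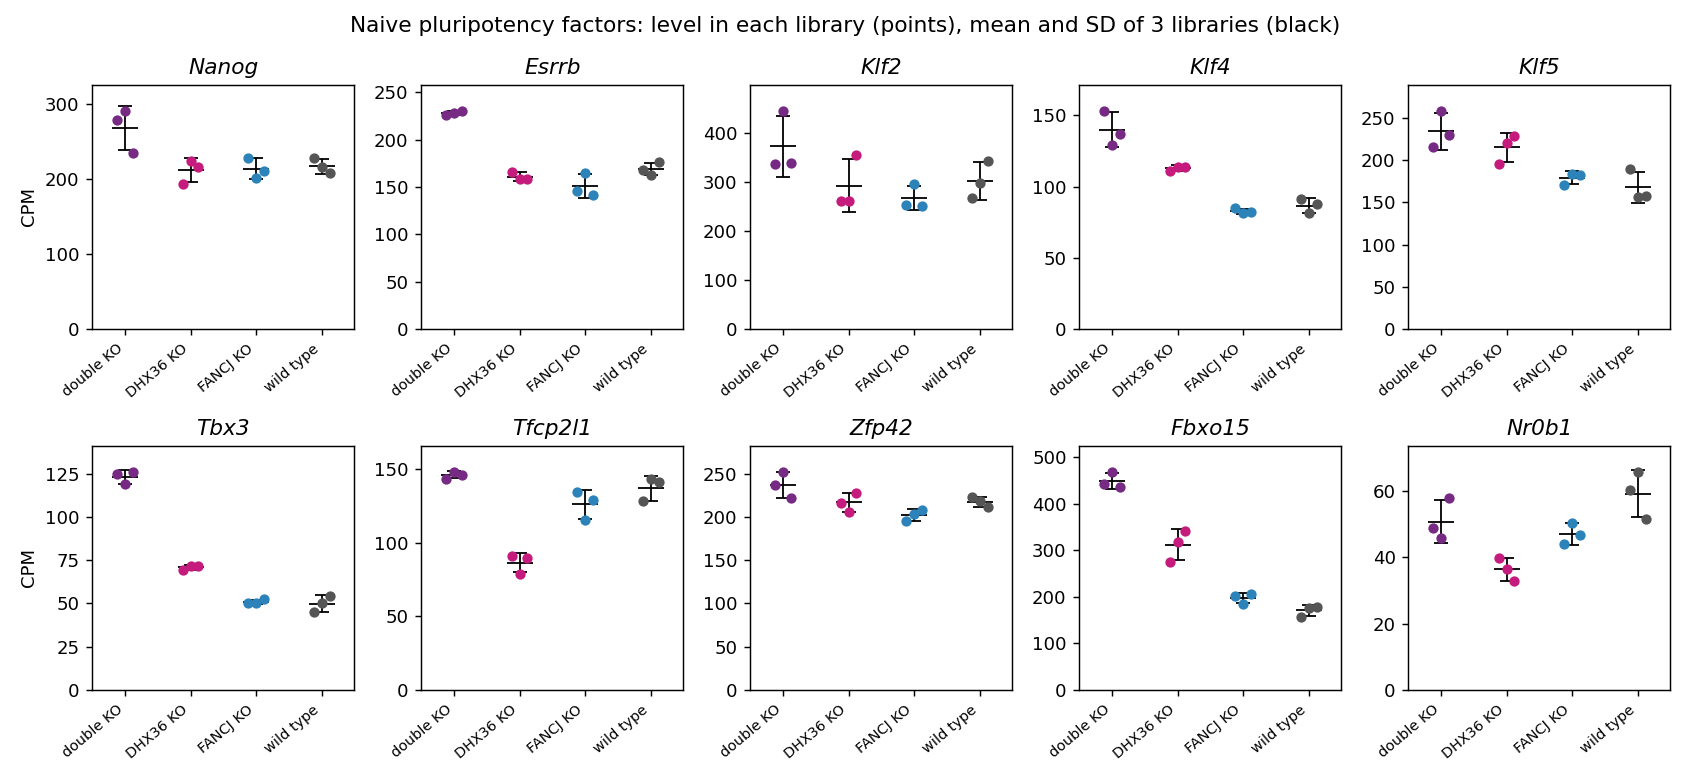
Level of each of the 10 members in CPM (vertical axis, from 0), by genotype along the horizontal axis with 3 libraries each (points), the mean and SD in black. Fbxo15 and Tbx3 step down across the double, DHX36 and FANCJ knockouts, while Tfcp2l1 and Nr0b1 are lowest in the DHX36 knockout.

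Fbxo15 and Tbx3 had the largest changes in the double knockout. Fbxo15 (ENSMUSG00000034391, chromosome 18, 84934782 to 84981473, plus strand) encodes the substrate-binding part of a ubiquitin ligase and has long served as a reporter of ES cell identity, although mice do not need it. It had 442, 469 and 436 CPM in the double knockout and 276, 319 and 342 CPM in the DHX36 knockout. The FANCJ knockout had 201, 185 and 205 CPM, against 157, 177 and 178 CPM in wild type. No 2 genotypes overlapped, each library of a genotype lying above all those of the next. Against wild type it was 2.63-fold higher in the double knockout (log2 fold change 1.4, SE 0.09, edgeR adjusted p = 1.34e-10) and 1.83-fold higher in the DHX36 knockout (0.87, SE 0.09, adjusted p = 3.21e-07). The FANCJ knockout differed from wild type by 0.21 (SE 0.09, edgeR adjusted p = 0.274), which did not pass although its libraries lay apart. Among cells without DHX36, those that also lacked FANCJ held more Fbxo15, by 0.52 on the log2 scale (SE 0.09, edgeR adjusted p = 0.00015). The antisense gene Timm21 lies across Fbxo15 with no overlap of exons and had 38 to 109 counts per library; how strand was handled in counting is not given in the sources used here.

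Tbx3 (ENSMUSG00000018604, chromosome 5, 119670669 to 119684724, plus strand) is a T-box factor that can sustain ES cells without LIF when overexpressed. It had 125, 119 and 126 CPM in the double knockout and 69.1, 71.5 and 71.7 CPM in the DHX36 knockout. FANCJ knockout libraries had 50.3, 50.3 and 52.2 CPM, against 44.7, 50.2 and 54.3 CPM in wild type. The double knockout stood clear of every other library, the DHX36 knockout came next, and the FANCJ knockout lay within the wild-type range. Tbx3 rose by 1.31 on the log2 scale in the double knockout (SE 0.09, edgeR adjusted p = 3.16e-10) and by 0.51 in the DHX36 knockout (SE 0.09, adjusted p = 0.000274). The FANCJ knockout was at 0.03 (SE 0.09, edgeR adjusted p = 0.921). Double knockout cells also held more Tbx3 than DHX36 knockout cells, by 0.8 (SE 0.08, edgeR adjusted p = 5.37e-07). The antisense transcript Tbx3os1, whose exons overlap those of Tbx3, had 0 to 6 counts per library.

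The Krüppel-like factors Klf2, Klf4 and Klf5 bind shared GC-rich sites, and loss of all of them together is known to make ES cells differentiate. Klf4 (ENSMUSG00000003032, chromosome 4, 55527143 to 55532466, minus strand), a direct target of LIF and STAT3, had 153, 129 and 137 CPM in the double knockout and 111, 114 and 114 CPM in the DHX36 knockout. In FANCJ knockout cells it had 84.8, 81.1 and 81.9 CPM, against 91, 81.3 and 87.8 CPM in wild type. Both genotypes without DHX36 lay above all libraries that had it, and the FANCJ knockout overlapped wild type. Klf4 rose by 0.69 in the double knockout (SE 0.09, edgeR adjusted p = 1.94e-06) and by 0.39 in the DHX36 knockout (SE 0.09, adjusted p = 0.00242). In the FANCJ knockout it was at -0.07 (edgeR adjusted p = 0.787). Between the double and the DHX36 knockout the difference was 0.31 (SE 0.08, edgeR adjusted p = 0.0108), which missed the threshold without replicate 1 of the double knockout (adjusted p = 0.0831) and at equal depth (adjusted p = 0.0629).

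Klf5 (ENSMUSG00000005148, chromosome 14, 99298691 to 99315036, plus strand), which is needed in the early embryo and promotes ES cell self-renewal, had 216, 258 and 230 CPM in the double knockout and 195, 220 and 229 CPM in the DHX36 knockout. The FANCJ knockout had 170, 184 and 182 CPM, against 189, 156 and 158 CPM in wild type. As for Klf4, the libraries without DHX36 all exceeded those with it, but the double and the DHX36 knockout overlapped. Against wild type Klf5 rose by 0.48 in the double knockout (SE 0.09, edgeR adjusted p = 0.000421) and by 0.36 in the DHX36 knockout (SE 0.1, adjusted p = 0.00864; 0.0548 without wild-type replicate 2). The double and the DHX36 knockout differed by 0.13 (edgeR adjusted p = 0.375). Between the DHX36 and the FANCJ knockout the difference of 0.27 passed (SE 0.09, edgeR adjusted p = 0.0366). It no longer passed at equal depth (0.0611) or without replicate 2 or 3 of the DHX36 knockout (0.0964 and 0.138) or replicate 1, 2 or 3 of the FANCJ knockout (0.164, 0.0663 and 0.0623).

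Klf2 (ENSMUSG00000055148, chromosome 8, 72319033 to 72321656, plus strand), a factor that supports the naive state when ERK signalling is blocked, had 336, 445 and 338 CPM in the double knockout and 262, 262 and 355 CPM in the DHX36 knockout. FANCJ knockout libraries had 254, 296 and 252 CPM, against 267, 298 and 344 CPM in wild type. The double knockout was highest on average, but its lower libraries fell among those of wild type and of the DHX36 knockout. Its difference from wild type was 0.3 (SE 0.13, edgeR adjusted p = 0.0691) and from the DHX36 knockout 0.35 (SE 0.12, adjusted p = 0.0543), neither passing. Against the FANCJ knockout Klf2 was higher by 0.48 (SE 0.13, edgeR adjusted p = 0.00458). Both missed calls were close to the threshold. That against wild type passed in 5 of 14 alternatives, among them without wild-type replicate 3 (0.0348) and without double knockout replicate 1 (0.0493). That against the DHX36 knockout passed in 7 of 14, among them without DHX36 knockout replicate 3 (0.00675) and without double knockout replicate 1 (0.0456) or 3 (0.0434).

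The 3 Klf genes have a wider family in ES cells, of which 13 other Klf genes were listed together with relatives of the other members (Esrra, Esrrg, Tbx2, Tfcp2, Ubp1, Yy1, Yy2 and Nr0b2). Of these 21 relatives 15 passed the filter. In the double knockout 6 rose and 3 fell against wild type, in the DHX36 knockout 6 rose and 2 fell, and in the FANCJ knockout 0 passed by edgeR or DESeq2 (0 higher and 2 lower at an unadjusted p under 0.05). Of all tested genes 33.9%, 24.4% and 2.07% changed by edgeR in the same order. Klf7 fell in both genotypes without DHX36, with 27.3 ± 1.58 CPM in the double knockout and 28.7 ± 2.51 CPM in the DHX36 knockout, against 54.8 ± 16.5 CPM in wild type (SD, n = 3 each; edgeR adjusted p = 2.09e-05 and 0.000107). Klf3, which represses transcription, rose in the double knockout to 143 ± 3.91 CPM, against 94.4 ± 13.5 CPM in wild type (log2 fold change 0.59, SE 0.11, edgeR adjusted p = 0.000219). Where relatives share sequence their counts are uncertain, as the handling of reads with several alignments is not given in the sources used here.

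Nanog and Esrrb rose with the loss of both helicases and did not pass with the loss of either. Esrrb (ENSMUSG00000021255, chromosome 12, 86361117 to 86521628, plus strand), an orphan nuclear receptor that can stand in for Nanog in self-renewal, had 226, 228 and 230 CPM in the double knockout and 166, 159 and 158 CPM in the DHX36 knockout. In FANCJ knockout cells it had 146, 165 and 142 CPM, against 168, 163 and 176 CPM in wild type. Its double knockout libraries were tightly grouped and above all others, and the remaining genotypes overlapped. Esrrb was higher in the double knockout by 0.43 against wild type (SE 0.08, edgeR adjusted p = 0.000218), 0.5 against the DHX36 knockout (SE 0.08, adjusted p = 8.1e-05) and 0.59 against the FANCJ knockout (SE 0.08, adjusted p = 4.19e-06). The single knockouts were at -0.07 (DHX36, SE 0.08, edgeR adjusted p = 0.575) and -0.16 (FANCJ, SE 0.08, adjusted p = 0.374) against wild type.

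Nanog (ENSMUSG00000012396, chromosome 6, 122707489 to 122714633, plus strand), the homeodomain factor whose level sets how readily ES cells differentiate, had 279, 291 and 235 CPM in the double knockout and 194, 225 and 216 CPM in the DHX36 knockout. The FANCJ knockout had 229, 201 and 211 CPM, against 229, 216 and 208 CPM in wild type. All double knockout libraries were higher than the rest, replicate 3 by a narrow margin. The difference was 0.31 against wild type (SE 0.09, edgeR adjusted p = 0.0128), 0.35 against the DHX36 knockout (SE 0.09, adjusted p = 0.00896) and 0.33 against the FANCJ knockout (SE 0.09, adjusted p = 0.00676). Libraries left out singly mattered here. The call against wild type was lost without double knockout replicate 1 (edgeR adjusted p = 0.0505) or 2 (0.075) and without wild-type replicate 3 (0.0561). That against the DHX36 knockout was lost without double knockout replicate 2 (0.0612) or DHX36 knockout replicate 1 (0.0553). The single knockouts were at -0.04 (DHX36, edgeR adjusted p = 0.796) and -0.02 (FANCJ, adjusted p = 0.945).

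Tfcp2l1 and Nr0b1 fell in cells that lacked DHX36 alone. Tfcp2l1 (ENSMUSG00000026380, chromosome 1, 118627945 to 118685168, plus strand), a grainyhead-related factor downstream of LIF and STAT3, had 143, 148 and 146 CPM in the double knockout and 90.5, 78.9 and 89.7 CPM in the DHX36 knockout. FANCJ knockout libraries had 134, 115 and 129 CPM, against 128, 143 and 141 CPM in wild type. The DHX36 knockout lay below every other library, and the double knockout was at the upper end of wild type. In the DHX36 knockout Tfcp2l1 was 1.59-fold lower than in wild type (log2 fold change -0.67, SE 0.09, edgeR adjusted p = 9.71e-06). In the double knockout it was at 0.08 against wild type (SE 0.09, edgeR adjusted p = 0.488) and higher than in the DHX36 knockout by 0.75 (SE 0.09, adjusted p = 2.09e-06). The FANCJ knockout was at -0.13 against wild type (edgeR adjusted p = 0.536).

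Nr0b1 (ENSMUSG00000025056, X chromosome, 86191764 to 86195947, plus strand) encodes DAX1, an orphan nuclear receptor that binds OCT4 and represses transcription. It had 48.7, 45.8 and 58 CPM in the double knockout and 39.9, 36.5 and 32.9 CPM in the DHX36 knockout. In FANCJ knockout cells it had 44, 50.4 and 46.6 CPM, against 60.2, 65.8 and 51.5 CPM in wild type. On average wild type was highest, and all libraries of the DHX36 knockout were lowest, with both genotypes without FANCJ between them and overlapping each other. Nr0b1 fell by 0.71 in the DHX36 knockout against wild type (SE 0.12, edgeR adjusted p = 0.000142), and was higher in the double than in the DHX36 knockout by 0.48 (SE 0.11, adjusted p = 0.00423). The FANCJ knockout was at -0.34 (SE 0.12, edgeR adjusted p = 0.164), with its libraries all below wild type. The double knockout was at -0.23 (SE 0.11, edgeR adjusted p = 0.135), which passed without double knockout replicate 3 (0.0458) or wild-type replicate 3 (0.049). Between the DHX36 and the FANCJ knockout, the difference of -0.37 (SE 0.12, edgeR adjusted p = 0.0216) was lost without DHX36 knockout replicate 3 (0.11) or FANCJ knockout replicate 2 (0.0832) and with library totals alone (0.0514).

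Zfp42 (ENSMUSG00000051176, chromosome 8, 43295063 to 43306980, minus strand), known as Rex1 and widely used as a reporter of the naive state, passed in no knockout against wild type. It had 237, 252 and 222 CPM in the double knockout and 216, 206 and 228 CPM in the DHX36 knockout. The FANCJ knockout had 195, 203 and 208 CPM, against 223, 218 and 211 CPM in wild type. Only the FANCJ knockout lay apart from wild type, all of its libraries just below. The log2 fold change was 0.13 in the double knockout (SE 0.08, edgeR adjusted p = 0.231), 0 in the DHX36 knockout (SE 0.08, adjusted p = 0.98) and -0.11 with FANCJ lost alone (SE 0.08, adjusted p = 0.58). Double knockout cells held more Zfp42 than FANCJ knockout cells, by 0.23 (SE 0.08, edgeR adjusted p = 0.0241). This call was lost without FANCJ knockout replicate 1 (0.108) or 2 (0.0569), without double knockout replicate 1 (0.0556) or 2 (0.113) and with no filter on low counts (0.0539).

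**Figure D2:**
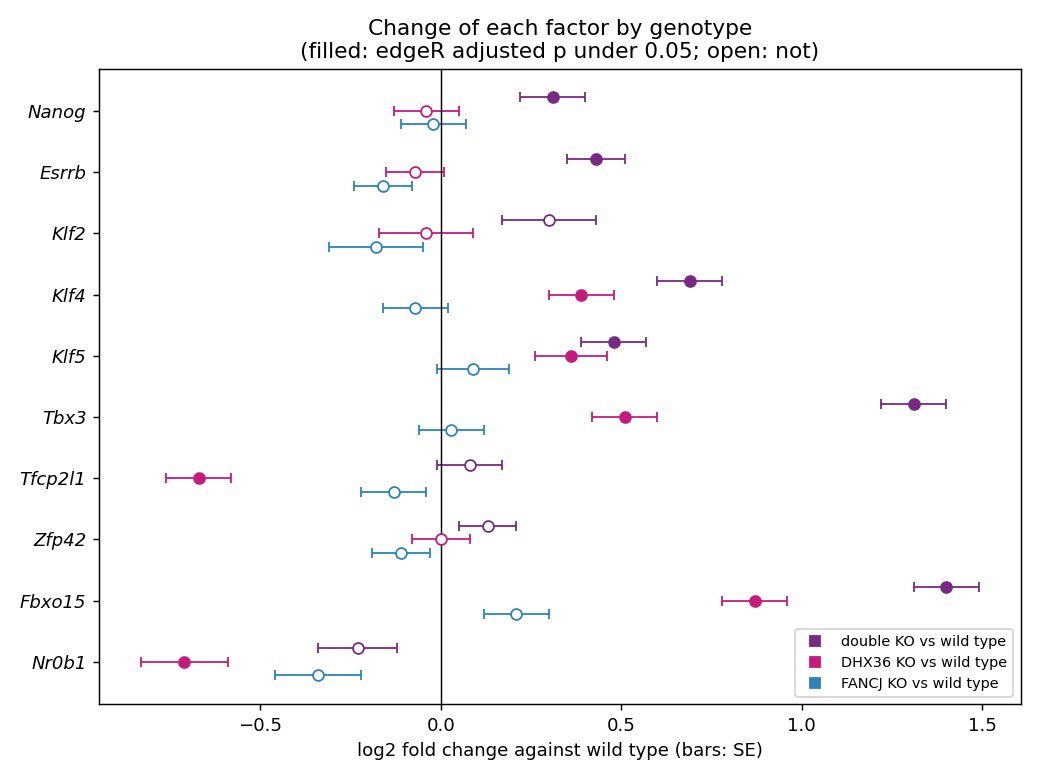
Log2 fold change against wild type (horizontal axis, bars are SE) of each member in the double, DHX36 and FANCJ knockouts, filled where the edgeR adjusted p is under 0.05. Fbxo15 (1.4) and Tbx3 (1.31) lead in the double knockout, and Nr0b1 (-0.71) and Tfcp2l1 (-0.67) are filled below 0 in the DHX36 knockout.

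Loss of FANCJ was next compared in cells with and without DHX36. In cells without DHX36, that is, in the double against the DHX36 knockout, 7 of 10 members rose and 0 fell, where 19.7% of all genes changed, 8.28% upward and 11.4% downward. The same 7 had libraries that did not overlap, as did 36.9% of all genes. In this comparison 8 were higher and 0 lower at an unadjusted p under 0.05, and DESeq2 called 7 and 0. In cells with DHX36, that is, in the FANCJ knockout against wild type, 0 passed, where 2.07% of all genes changed. The difference between these effects, the interaction, was tested in the same model. It passed for Tfcp2l1 (0.88, SE 0.12, edgeR adjusted p = 7.43e-05), Nr0b1 (0.82, SE 0.16, adjusted p = 0.0024), Tbx3 (0.77, SE 0.13, adjusted p = 0.000368) and Esrrb (0.66, SE 0.11, adjusted p = 0.000553), 4 of 10 members. Of all genes 8.79% passed, 2.73% in this direction and 6.06% in the other. A positive interaction here has different shapes: for Tbx3 and Esrrb the double knockout exceeded every other genotype, while for Tfcp2l1 and Nr0b1 the double knockout lay nearer wild type than the DHX36 knockout did.

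For the other 6 members the interaction did not pass, though all 10 estimates were above 0, with a median of 0.45 beside 0 over all genes. Klf2 was at 0.52 (SE 0.18, edgeR adjusted p = 0.0721), Klf4 at 0.38 (SE 0.12, adjusted p = 0.0577) and Nanog at 0.37 (SE 0.13, adjusted p = 0.0818). These lay close to the threshold. Klf2 passed without DHX36 knockout replicate 3 (edgeR adjusted p = 0.0118) and with no filter on low counts (0.00234). Klf4 passed without double knockout replicate 2 (0.044) or wild-type replicate 2 (0.0489) and among genes of at least 20 CPM (0.0375). Nanog passed without double knockout replicate 3 (0.0258). Fbxo15 was at 0.32 (SE 0.12, edgeR adjusted p = 0.125), Zfp42 at 0.23 (SE 0.11, adjusted p = 0.211) and Klf5 at 0.04 (SE 0.13, adjusted p = 0.91). The 4 passing calls held in all 19 alternatives run for the interaction.

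**Figure D3:**
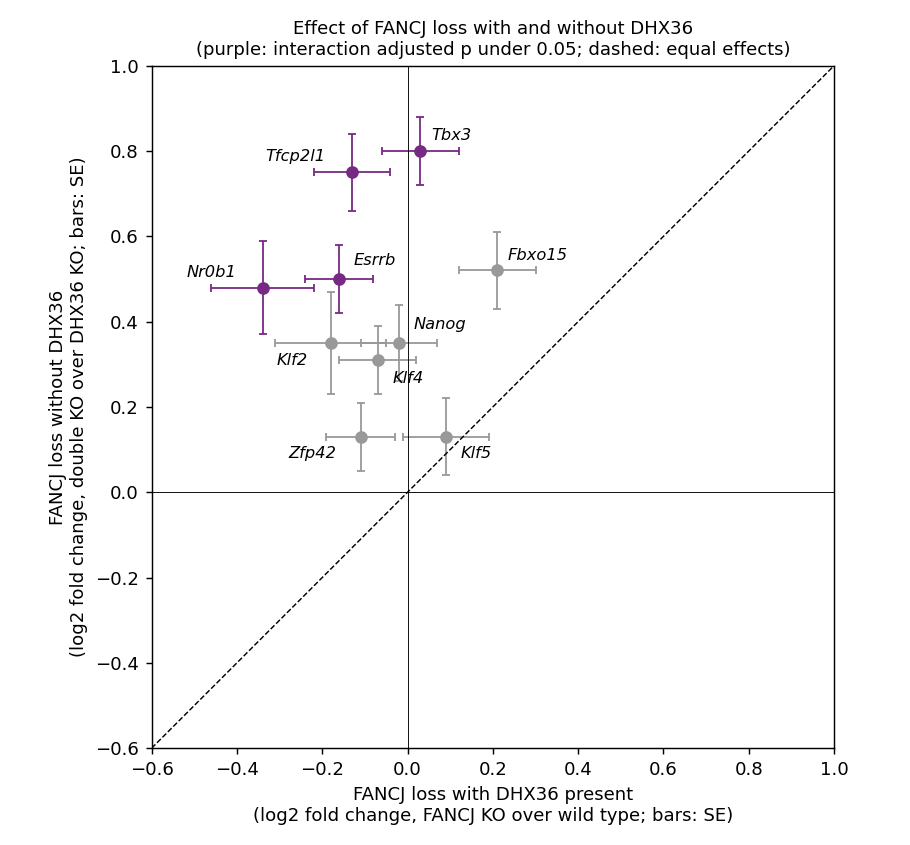
Each point is 1 member, with the log2 fold change of FANCJ loss in cells with DHX36 (FANCJ knockout over wild type) on the horizontal axis and in cells without DHX36 (double over DHX36 knockout) on the vertical axis; bars are SE and the dashed line marks equal effects. All 10 members lie above the line, and those with a passing interaction, Tfcp2l1, Nr0b1, Tbx3 and Esrrb, are in purple.

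Seen from the other side, DHX36 loss in cells without FANCJ was read from the double against the FANCJ knockout. There 8 of 10 members were higher and 0 lower, where 36.8% of all genes changed, 18.3% upward and 18.5% downward. Libraries did not overlap for 9 members and 48.7% of all genes. At an unadjusted p under 0.05 there were 9 higher and 0 lower, and DESeq2 called 8 and 0. The members that did not pass were Tfcp2l1 (0.21, SE 0.09, edgeR adjusted p = 0.0581), whose double knockout libraries nonetheless lay above all those of the FANCJ knockout, and Nr0b1 (0.11, SE 0.11, adjusted p = 0.477). Tfcp2l1 passed with library totals alone (edgeR adjusted p = 0.0216) and among genes of at least 20 CPM (0.0242). Set directly against each other, the DHX36 knockout was higher than the FANCJ knockout for 4 members (Fbxo15, Tbx3, Klf4 and Klf5) and lower for 2 (Tfcp2l1 and Nr0b1). Of all genes 30.2% differed, 15.4% higher and 14.8% lower, and libraries did not overlap for 6 members and 42.9% of all genes.

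By order of the 4 levels, the members fell into several shapes. Fbxo15 and Tbx3 ran double knockout, DHX36 knockout, FANCJ knockout, wild type, and each step passed the edgeR test except the last. For Klf4 the same held with wild type and the FANCJ knockout changing places without a passing difference. Esrrb and Nanog had 1 passing step, below the double knockout, with the other genotypes not separated. Tfcp2l1 and Nr0b1 had 1 passing step, above the DHX36 knockout at the bottom, and Zfp42 and Klf2 had none between neighbours. For Klf5 the passing step lay between the DHX36 and the FANCJ knockout.

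How alike 2 genes were was measured as the root mean square difference of their 3 log2 fold changes against wild type, over the 5701 tested genes that averaged 20 CPM or more. The gene nearest to Tfcp2l1 was Mme, a cell surface peptidase, at a distance of 0.022 and with changes of 0.1 in the double, -0.63 in the DHX36 and -0.11 in the FANCJ knockout. Nearest to Tbx3 was Slc6a8, a creatine transporter, at 0.073 (1.21, 0.54 and 0.1 in the same order). Nearest to Esrrb was Senp3, a SUMO protease, at 0.031 (0.45, -0.12 and -0.15), and nearest to Fbxo15 was Gramd1a at 0.099 (1.23, 0.87 and 0.16). Some of the 5701 genes lay closer to a member than the nearest other member did. With so many candidates set against so few members, this says little about how alike the members are. The nearest other member was Fbxo15 for Tbx3 (0.24, with 34 of the 5701 genes closer), Nr0b1 for Tfcp2l1 (0.22, with 103 closer) and Klf2 for Esrrb (0.079, with 13 closer).

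Against wild type, 33.9% of all tested genes changed in the double, 24.4% in the DHX36 and 2.07% in the FANCJ knockout. The list counts that follow are to be read beside these shares. Further genes of the naive network were counted beside the members. Of 20 such genes, 13 rose and 1 fell in the double knockout, 6 rose and 3 fell in the DHX36 knockout, and 0 rose and 2 fell in the FANCJ knockout, each against wild type. Their median log2 fold changes were 0.45 in the double, 0.1 in the DHX36 and -0.13 in the FANCJ knockout. Dppa3 had the largest passing change of these genes in both single knockouts. Dppa3, also called Stella, a maternal factor that protects DNA methylation in the early embryo, had 43.2, 43.1 and 36.5 CPM in the double knockout and 71.3, 60.5 and 63.9 CPM in the DHX36 knockout. FANCJ knockout libraries had 6.83, 6.25 and 8.46 CPM, against 19.5, 18 and 24.1 CPM in wild type. Unlike the 10 members, Dppa3 changed in all 3 knockouts, upward in the double (1.01, SE 0.13, edgeR adjusted p = 3.22e-06) and the DHX36 knockout (1.68, SE 0.13, adjusted p = 6.52e-09) and downward in the FANCJ knockout (-1.53, SE 0.17, adjusted p = 9.08e-06). Gbx2, a homeobox factor downstream of LIF, fell in the double knockout (-1.23, SE 0.11, edgeR adjusted p = 2.86e-08) and the DHX36 knockout (-0.73, SE 0.11, adjusted p = 5.26e-05). In the double knockout it was the only one of the 20 that fell. Pecam1, a surface marker of undifferentiated ES cells, averaged 98.9 ± 6.9 CPM in the double knockout and 43.7 ± 7.62 CPM in wild type (SD, n = 3 each; log2 fold change 1.18, edgeR adjusted p = 8.72e-08).

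The signalling inputs to the network were counted the same way, beside 33.9%, 24.4% and 2.07% of all genes in the double, DHX36 and FANCJ knockouts. Of 12 genes of the LIF and STAT3 pathway, 1 rose and 2 fell in the double knockout, 1 rose and 2 fell in the DHX36 knockout and 0 rose and 2 fell in the FANCJ knockout. Junb, an early target of STAT3, had 66 ± 4.05 CPM in the double knockout and 101 ± 6.48 CPM in the DHX36 knockout, against 132 ± 15.5 CPM in wild type (SD, n = 3 each), and fell in both. Pim1 fell in the double (-0.63, edgeR adjusted p = 4.9e-05), the DHX36 (-0.41, adjusted p = 0.0043) and the FANCJ knockout (-0.46, adjusted p = 0.0189). The last of these calls was lost in 5 of 14 alternatives. Bcl3 fell in the FANCJ knockout (-0.72, edgeR adjusted p = 0.00382). Ptpn11 rose in the double (0.31, edgeR adjusted p = 0.026) and the DHX36 knockout (0.36, adjusted p = 0.0168). The receptor genes Lifr (0.31, edgeR adjusted p = 0.0526) and Il6st (-0.1, adjusted p = 0.567) and Stat3 itself (0.14, adjusted p = 0.245) did not pass in the double knockout. Of 9 genes of the Wnt branch, 2 rose and 3 fell in the double knockout, 0 rose and 1 fell in the DHX36 knockout and 0 passed in the FANCJ knockout by edgeR or DESeq2 (1 higher and 0 lower at an unadjusted p under 0.05). Tcf7l1, the repressor of Esrrb and other naive genes, rose in the double knockout to 856 ± 72.5 CPM, against 577 ± 43.9 CPM in wild type (SD, n = 3 each; 0.57, SE 0.1, edgeR adjusted p = 0.000111). Axin2, a feedback target of Wnt signalling, fell there to 6.05 ± 0.499 CPM, against 12.7 ± 0.447 CPM in wild type (-1.06, SE 0.18, edgeR adjusted p = 7.95e-05). A further list held 8 genes tied to the exit from the naive state, not all of which promote it. Of these, 2 rose and 1 fell in the double knockout, 1 rose in the DHX36 knockout and 1 fell in the FANCJ knockout. The gene that fell was Tfe3 in both (-0.44, edgeR adjusted p = 0.00769, and -0.61, adjusted p = 0.0138). The median log2 fold changes in the double knockout were -0.03 for the LIF list, 0.05 for the Wnt list and 0.1 for the exit list, beside 0.01 over all genes.

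Formative genes and the pluripotency genes Pou5f1 and Sox2 were read beside the members. Of all tested genes 33.9% changed in the double, 24.4% in the DHX36 and 2.07% in the FANCJ knockout. Pou5f1, the gene of OCT4, did not pass in the double knockout (0.14, SE 0.1, edgeR adjusted p = 0.284), while Sox2 rose (0.47, SE 0.08, adjusted p = 9.63e-05). Of 11 formative genes, 4 rose and 1 fell in the double knockout, 7 rose and 0 fell in the DHX36 knockout and 0 passed in the FANCJ knockout by edgeR. DESeq2 called 1 higher and 1 lower of them there, and 2 were higher and 3 lower at an unadjusted p under 0.05. Their median was 0.12 in the double and 0.6 in the DHX36 knockout. Otx2, the factor that moves cells toward the formative state, had 127 ± 10.3 CPM in the double knockout and 97.1 ± 4.42 CPM in the DHX36 knockout, against 20.7 ± 6.82 CPM in wild type (SD, n = 3 each). The de novo methyltransferase gene Dnmt3a rose in both as well (1.47 and 1.51, SE 0.09 each, edgeR adjusted p = 2.61e-11 and 7.03e-11). In the double knockout, 4 formative genes were thus higher in the same libraries as 6 naive members, where 16.6% of all genes rose. Set against the DHX36 knockout, 2 of the 11 formative genes were higher and 7 lower in the double knockout, where 19.7% of all genes changed. Lef1, a Wnt effector of this list, rose in the DHX36 knockout (1.28, SE 0.13, edgeR adjusted p = 3.47e-07) but did not pass in the double knockout (0.27, SE 0.13, adjusted p = 0.124).

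Summed over the 10 members, levels ranged over 2158 to 2385 CPM in the double knockout, 1620.2 to 1836 CPM in the DHX36 knockout, 1509 to 1531 CPM in the FANCJ knockout and 1556 to 1609.7 CPM in wild type. Fbxo15 gave a large part of the differences, at a mean of 449, 312, 197 and 171 CPM in the same order. Between wild type and the DHX36 knockout the mean sum went from 1578 to 1716 CPM, no more than Fbxo15 alone rose. The other members together thus did not rise there. The 11 formative genes summed to 759 to 780 CPM in the double knockout, 883 to 948 CPM in the DHX36 knockout, 482 to 489.8 CPM in the FANCJ knockout and 481 to 514 CPM in wild type. The naive sum was therefore highest in the double knockout and the formative sum in the DHX36 knockout, with no overlap of libraries in either case.

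**Figure D4:**
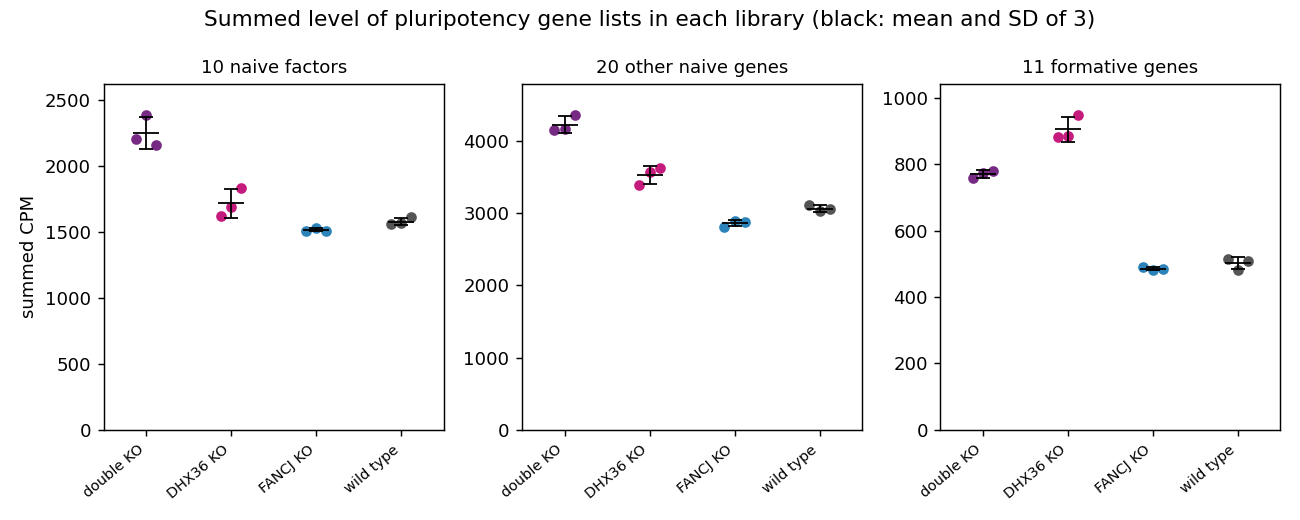
Summed CPM (vertical axes, from 0) of the pluripotency gene lists in each of the 12 libraries (points), by genotype, with mean and SD in black. The naive members reach 2158 to 2385 CPM in the double knockout, above the DHX36 knockout (1620.2 to 1836 CPM), and the formative genes reach 883 to 948 CPM in the DHX36 knockout, above the double knockout (759 to 780 CPM).

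Markers of other cell types differed between the same genotypes. In the double knockout against wild type 33.9% of all tested genes changed, 16.6% upward and 17.3% downward. Fibroblast markers (10 of 12 tested, 1 higher and 6 lower in the double knockout against wild type) summed to 282 to 298 CPM in the double knockout, 529 to 564 CPM in the DHX36 knockout, 1171 to 1219 CPM in the FANCJ knockout and 828 to 1019 CPM in wild type. Trophoblast markers (10 of 11 tested, 4 higher and 5 lower) summed to 364 to 405, 535 to 608, 1087 to 1135 and 871 to 1029.8 CPM in the same order of genotypes, and Elf5 was at 0 in wild type. Both sums were lowest in the double knockout, where the naive sum was highest. Each sum rests largely on a few genes. Krt8 and Krt18 averaged 579.7 and 203 CPM in wild type and 155 and 59.7 CPM in the double knockout. Acta2 and Tagln averaged 363 and 308 CPM in wild type and 45.8 and 61.5 CPM in the double knockout. Of the genes that rose there, Plet1 went from 4.55 to 9.37 CPM and Thy1 from 4.13 to 12.2 CPM. The sums are therefore no measure of the share of either cell type. Primitive endoderm markers (12 of 13 tested, 5 higher and 2 lower) summed to 421 to 486 CPM in the double knockout, 469 to 495 CPM in the DHX36 knockout, 617 to 640.4 CPM in the FANCJ knockout and 430.1 to 556 CPM in wild type. Those that rose in the double knockout included Pdgfra (2.05), Sox17 (1.96), Cubn (1.96) and Gata6 (1.83). They weigh little in the sum, Sox17 going from 2.59 to 9.76 CPM and Gata6 from 1.85 to 6.71 CPM. In the FANCJ knockout 7 of the 12 rose and 0 fell against wild type, where 2.07% of all genes changed. The calls of Cubn, Gata6 and Lama1 there did not hold in all alternatives. Neuroectoderm markers (5 of 8 tested, 0 higher and 4 lower) summed to 128 to 143 CPM in the double knockout, 178 to 183 CPM in the DHX36 knockout, 161 to 169 CPM in the FANCJ knockout and 158 to 167 CPM in wild type. Neurog2 was at 0 in the FANCJ knockout and wild type, and Hes5 in the FANCJ knockout. Mesendoderm markers (4 of 8 tested, 1 higher and 1 lower) summed to 36.6 to 39.3 CPM in the double knockout, 57 to 67.7 CPM in the DHX36 knockout, 25.1 to 30.9 CPM in the FANCJ knockout and 32.5 to 36.5 CPM in wild type. Mesp1 was at 0 in the FANCJ knockout and wild type, and Gsc and Lhx1 in wild type. Genes of the 2-cell-like state (7 of 11 tested, 4 higher and 0 lower) summed to 89.9 to 100.2 CPM in the double knockout, 163 to 169 CPM in the DHX36 knockout, 85.4 to 99.1 CPM in the FANCJ knockout and 51.8 to 60 CPM in wild type, with Tdpoz4 at 0 in the double knockout, the FANCJ knockout and wild type. The part of these cell types in the members' changes was not tested.

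Depth also moved with genotype. With every library thinned to 4284785 counts, 6 members were called in the double knockout against wild type, 6 in the DHX36 and 0 in the FANCJ knockout, 6 in the double against the DHX36 knockout, and 4 for the interaction. The mitochondrial share of counts, a sign of RNA or cell quality, ranged between 11.9% and 13.2% in double knockout libraries. DHX36 knockout libraries had 11% to 12.3% and FANCJ knockout libraries 11.2% to 11.5%, against 10% to 10.6% in wild type. Every knockout library thus had a higher share than every wild-type one, and the part of this in the members' changes was not tested.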

How the data were processed

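The authors deposited raw whole-number counts for each gene and library, from bulk RNA sequencing libraries of 12 samples, made, per the labels' protocols, by a method similar to CEL-Seq2. Per the submitters' processing notes, BWA was used, with the builds GRCm38 and hg38; versions and roles, and whether a count is a read or a molecule, are not given in the sources used here. Spike-in transcripts (4 to 30 counts per library) were left out. Replicate libraries of a genotype differed by 4.11 to 12.3 times the variance of counting alone, a comparison that covers counting error only, and were counted as separate.

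Genotype was the single term of 1 model over the 12 libraries in edgeR 4.0.16 (R 4.3.3): quasi-likelihood F test, normalisation by trimmed means (factors 0.976 to 1.031), default expression filter, Benjamini-Hochberg adjustment over the 12765 genes tested, threshold 0.05, two-sided. SE is the absolute log2 fold change divided by the root of its F. The interaction is the double minus the DHX36 knockout, minus the FANCJ knockout minus wild type. Groups do not overlap where all 3 libraries of one exceed all 3 of the other in CPM.

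The 10 members and all gene lists were chosen with earlier results of these data known. All members are named; of each other list in the report, counts are given and up to 4 called genes per comparison with wild type, by size of change, could be named, together with the 3 genes nearest to each member called against wild type. A further list was left out and is not reported here. Lifr, Il6st, Stat3, Pou5f1 and Sox2 are named as pathway or pluripotency genes after their values were seen. Alternatives were DESeq2 1.42.0 (its size factors, and its Wald test), library totals alone, no filter or a mean of at least 20 CPM, only the genotypes compared, the replicate number as a block, thinning to equal depth, and leaving out each library. Sample columns not assigned to a sample numbered 0. Motifs were searched with Python 3.11.15.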

Additional observations from a re-analysis of the deposited data

Results flagged for a closer look

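The effect of FANCJ loss on 4 members differed with the presence of DHX36, by a test of the difference itself (edgeR interaction term, over all genes tested). The log2 difference of effects was 0.88 for Tfcp2l1, 0.82 for Nr0b1, 0.77 for Tbx3 and 0.66 for Esrrb. In cells without DHX36 the change on FANCJ loss was 0.75 for Tfcp2l1, 0.48 for Nr0b1, 0.8 for Tbx3 and 0.5 for Esrrb, and in cells with DHX36 it was -0.13, -0.34, 0.03 and -0.16 in the same order. With 3 libraries per genotype and clone numbers not given in the sources used here, a difference between clones cannot be told apart from a difference between genotypes.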

How the results depend on the processing

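Of the 37 calls of members over 7 comparisons, checked in 538 values under alternatives, 22 values missed the threshold, 18 of them on leaving out a library, and 0 changed sign; 22 values of uncalled members passed. Members called with a library left out were 5 to 7 in the double and 5 to 6 in the DHX36 knockout against wild type, 0 in the FANCJ knockout, 6 to 8 in the double against the DHX36 knockout, 7 to 8 in the double against the FANCJ knockout, 4 to 6 in the DHX36 against the FANCJ knockout and 4 to 5 for the interaction. Changes of sign were seen only for uncalled values near 0. For Nanog, the DHX36 against the FANCJ knockout went to 0.03 with library totals, 0.02 among genes of at least 20 CPM and -0.07 to 0.04 with a library left out. Klf5's interaction went to -0.03 at equal depth and -0.06 to 0.09 with a library left out. With a library left out, Nanog ranged over -0.08 to 0.01 in the DHX36 and -0.07 to 0.02 in the FANCJ knockout, Klf2 over -0.21 to 0.05 in the DHX36 knockout and -0.03 to 0.21 in the DHX36 against the FANCJ knockout, and Tbx3 over -0.03 to 0.09 in the FANCJ knockout.

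Counts over all genes moved more, fewer genes being tested at 20 CPM and fewer counts being used at equal depth. Genes called at 20 CPM or more were 2292 in the double knockout (4331 in the fit reported), 1766 in the DHX36 knockout (3113), 1379 in the double against the DHX36 knockout (2512), 2436 in the double against the FANCJ knockout (4697), 2065 in the DHX36 against the FANCJ knockout (3857) and 741 for the interaction (1122). At equal depth they were 2058 in the DHX36 knockout, 1428 in the double against the DHX36 knockout, 2467 in the DHX36 against the FANCJ knockout and 596 for the interaction. The 264 genes of the FANCJ knockout became 418 with no filter, 159 with only the genotypes compared, 95 at equal depth and 110 to 198 with a library left out, and its 3 members with no overlap became 3 to 5. Of 1092 counts called in the other gene lists under alternatives, 101 moved by over 1.5 times, or to or off 0.

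Replicate numbers did not pair the libraries (same-numbered pairs correlated at -0.12 to 0.12, 3 of 18 above 0.1, and 4 of 12 libraries correlated best with their own number). With the number as a replicate block, members called were 6 in the double, 6 in the DHX36 and 0 in the FANCJ knockout against wild type, 8 in the double against the DHX36 knockout, 8 in the double against the FANCJ knockout, 6 in the DHX36 against the FANCJ knockout and 4 for the interaction, and genes called were 4264, 3004, 233, 2387, 4581, 3701 and 1039 in the same order.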
